A study of Homo sapiens with 6 samples.

Results

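The 10 genes described here encode helpers of the HSP70 chaperone: the J-domain proteins DNAJA1, DNAJA4, DNAJB1, DNAJB4 and DNAJB6, the BAG-domain proteins BAG1 and BAG3, and the small heat shock proteins HSPB1, HSPB8 and CRYAB. They were taken by symbol, through their Ensembl IDs, and all 10 were found among the 35716 genes of the count table. The samples are labelled as MIA PaCa-2, an established human line of pancreatic ductal adenocarcinoma cells, with genotype WT. The labels' extraction protocol speaks of RNA from pancreas, although each sample is labelled as this line. In 3 libraries the cells were untreated, grown in DMEM with 10% serum for 24 h, and in 3 they had 10 nM triptolide for 24 h. Triptolide, a plant diterpenoid, targets the TFIIH helicase XPB and so blocks initiation by RNA polymerase II. The series' design text calls the treated libraries the control group, and they are named here by the treatment in their labels. The cells are 1 line without a vehicle group in the labels, and no label says whether the 3 libraries of a group were separate cultures, and the p-values then rest on a spread between libraries that could be technical.

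J-domain proteins, also called HSP40s, bring unfolded clients to HSP70 and stimulate its ATPase, and BAG proteins then help HSP70 to release nucleotide and client. Small heat shock proteins hold unfolded proteins without using ATP. BAG3 binds both HSP70 and HSPB8 and directs their clients to autophagy, while BAG1 links HSP70 to the proteasome. Many of these genes are targets of the heat shock factor HSF1, which binds repeats of the letters GAA and TTC in promoters.

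With triptolide, DNAJA4, BAG3 and CRYAB rose, no member fell, 6 were tested and not called, and HSPB8 was too low to be tested. In the edgeR test 15.9% of 15202 tested genes were called at an adjusted p under 0.05, 10.0% higher and 5.82% lower. At an unadjusted p under 0.05 there were 4 members higher and 0 lower, where 30.9% of all tested genes passed. DESeq2 and limma-voom each called 3 members higher and 0 lower, against 17.3% and 15.7% of all tested genes. CRYAB passed the filter on low counts through its triptolide libraries alone, so its place among the tested genes came from the group in which it was high. The median log2 fold change was 0.43 over the other 8 tested members and -0.004 over all genes tested. Levels are given as CPM, counts per 1000000 counts of a scaled library, so each rise or fall is measured against the rest of that library's RNA.

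**Figure D1:**
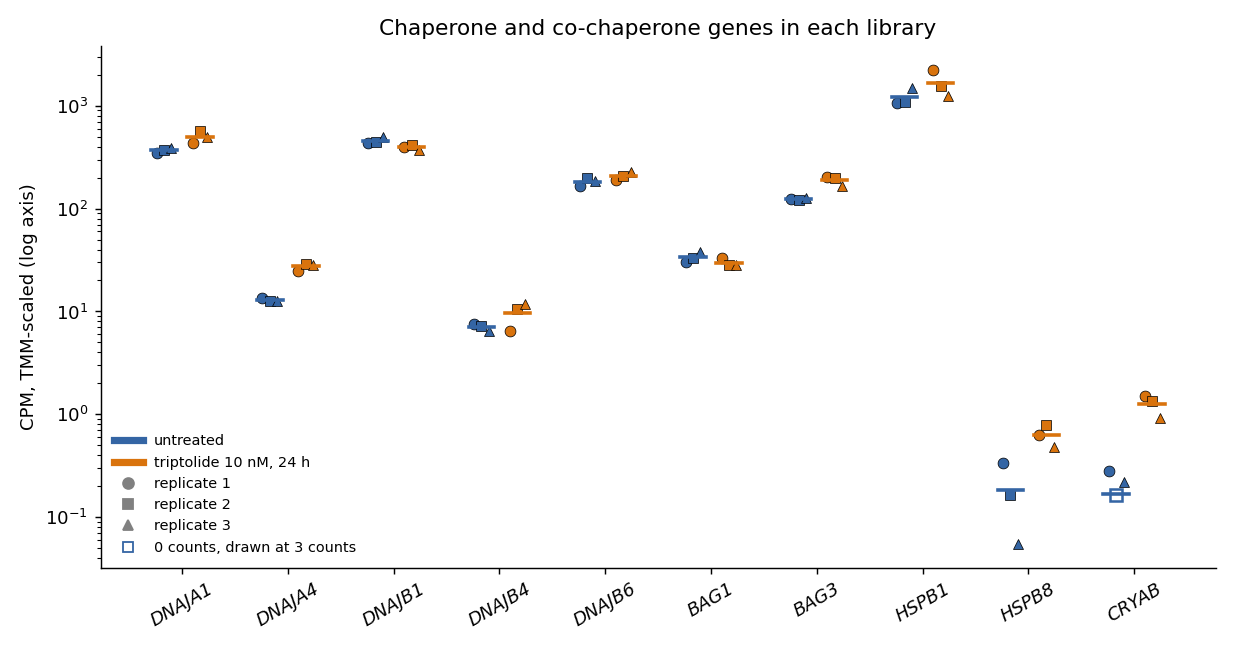
CPM (log axis) of the 10 genes in the 3 untreated (blue) and 3 triptolide (orange) libraries, with a bar at each group mean and an open square for the library without a CRYAB count, drawn at the level of 3 counts. The groups do not overlap in DNAJA1, DNAJA4, BAG3, HSPB8 and CRYAB, with triptolide above, and in DNAJB1, with triptolide below, while HSPB1 spreads widely in both groups, from 1051 to 2242 CPM.

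Library totals ran from 16302961 to 23262713 counts. The chi-square over its degrees of freedom between 2 libraries was lowest, at 4.96, for untreated replicates 1 and 2. With untreated replicate 3 these had 40.8 and 30.05, so the 3 untreated libraries were not equally far apart. A narrow spread of untreated values below is to be read with this limit. Between the triptolide libraries the measure ran from 25.6 to 61.9. Between libraries of different groups it ran from 27.6 to 78.4, so distances within and between the groups overlapped. KRT8, the carcinoma keratin of highest level, had 1894 ± 341 CPM in the untreated and 1587 ± 256 CPM in the triptolide libraries (SD, n = 3 each), while EPCAM and CDH1, markers of epithelium, had 4 and 5 counts over the untreated libraries and 3 and 16 over the triptolide libraries. Of 6 tested carcinoma epithelial markers 0 were higher and 1, KRT18, was lower (870 ± 168 against 503 ± 57.0 CPM, edgeR adjusted p = 0.0123), and DESeq2 called 2 lower. The summed level of that list ran from 2581 to 3686 CPM untreated and from 1980 to 2639 CPM with triptolide. Of 23 tested placental trophoblast markers 21 were higher with triptolide and 0 lower, and the summed level of the list ran from 31.2 to 35.0 CPM untreated and from 620 to 995 CPM with triptolide. DESeq2 and limma-voom also called 21 higher and 0 lower among the same filtered genes. Most of these markers lay under the low-count filter in every untreated library. They entered the tests through the triptolide libraries, the group in which they were high, so the counts of calls lend the shift little support. The summed level covers all genes of the list and does not depend on the filter. Of 7 blood and endothelial markers 5 were higher and 1 lower (24.1 to 29.05 against 29.8 to 45.7 CPM summed). The lower one, CDH5, had the highest level of that list, 23.6 ± 2.54 against 15.9 ± 2.15 CPM (edgeR adjusted p = 0.0471). Of 14 fibroblast and smooth muscle markers 1 was higher and 8 lower (646 to 796 against 362 to 459 CPM). The most abundant of them, COL1A2, was not called (323 ± 30.8 against 329 ± 54.5 CPM, edgeR adjusted p = 0.936). Most blood markers called higher and some fibroblast markers called lower also entered the test through the group in which they were high. The most abundant trophoblast marker, CSH1, stood at 4.92 ± 0.13 and 430 ± 175 CPM. The triptolide libraries held trophoblast markers at 620 to 995 CPM beside carcinoma markers at 1980 to 2639 CPM. The trophoblast genes are not markers of the labelled cell type. Whose RNA these libraries hold, and whether their identity is as labelled, was not tested beyond the markers. The part of these shifts in the members' results was not tested, and a change in the number of cells of a type cannot be told apart from a change in RNA per cell in bulk samples.

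DNAJA4 (ENSG00000140403), a class A J-domain protein of the cytosol, had the smallest adjusted p of the members. Its levels were 13.5, 12.7 and 12.6 CPM in the untreated libraries and 25.0, 28.7 and 28.5 CPM with triptolide. Every triptolide library lay above every untreated library, and the 3 untreated values differed by less than 1 CPM. The mean went from 12.9 ± 0.52 to 27.4 ± 2.07 CPM (SD, n = 3 libraries each), and the edgeR log2 fold change was 1.08 ± 0.16 (SE; adjusted p = 0.0012). It was called in each of the 15 alternatives, with log2 fold changes from 1.03 to 1.25. The paralogue DNAJA1 (ENSG00000086061), the abundant class A partner of cytosolic HSP70, had 350, 375 and 391 CPM untreated and 437, 570 and 499 CPM with triptolide. Its groups did not overlap, but its log2 fold change of 0.43 ± 0.16 had an edgeR adjusted p of 0.0897. DNAJA1 passed without triptolide replicate 1 (edgeR adjusted p = 0.0244) and with a GC offset per library (0.00865).

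The genes nearest to DNAJA4 in pattern over the 6 libraries, among 10288 genes whose mean reached 5 CPM, were RASSF8-AS1, RSRP1 and RCBTB2. Their log2 CPM, centred on each gene's own mean, differed from that of DNAJA4 by a root mean square of 0.021, 0.064 and 0.07. RASSF8-AS1, an antisense RNA gene, had 7.85, 7.31 and 6.94 CPM untreated and 14.3, 16.7 and 16.5 CPM with triptolide. With 3 libraries in each of 2 groups, many genes that rise by a like amount come close in this measure.

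Among the class B genes, DNAJB1 (ENSG00000132002), the classic heat-inducible HSP40, had 429, 439 and 495 CPM untreated and 396, 414 and 372 CPM with triptolide. All 3 triptolide libraries lay below the untreated ones, while the log2 fold change of -0.21 ± 0.15 (SE) was not called (edgeR adjusted p = 0.389, 95% interval from -0.54 to 0.12). DNAJB1 shares 211 exon bases with TECR on the opposite strand in GENCODE 29, and TECR had 18767 counts over the 6 libraries. Without the strand setting, reads of these bases cannot be told apart. DNAJB4 (ENSG00000162616), a less abundant relative of DNAJB1, had 7.63, 7.20 and 6.50 CPM untreated and 6.42, 10.5 and 11.8 CPM with triptolide. Triptolide replicate 1 lay below all untreated libraries and the other two lay above them, so the groups overlapped (edgeR adjusted p = 0.231). Without triptolide replicate 1 the log2 fold change of DNAJB4 moved from 0.43 to 0.66 (edgeR adjusted p = 0.0294), and with the GC offset it was 0.69 (adjusted p = 0.00709). DNAJB4 and DNAJA1 have the lowest GC content of the members, 33.1% and 41.7% in the longest GENCODE 29 transcript. DNAJB6 (ENSG00000105993), known for suppressing aggregation of polyglutamine proteins, had 165, 196 and 187 CPM untreated and 189, 209 and 229 CPM with triptolide. These overlapped, with a log2 fold change of 0.20 ± 0.16 (edgeR adjusted p = 0.434).

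**Figure D2:**
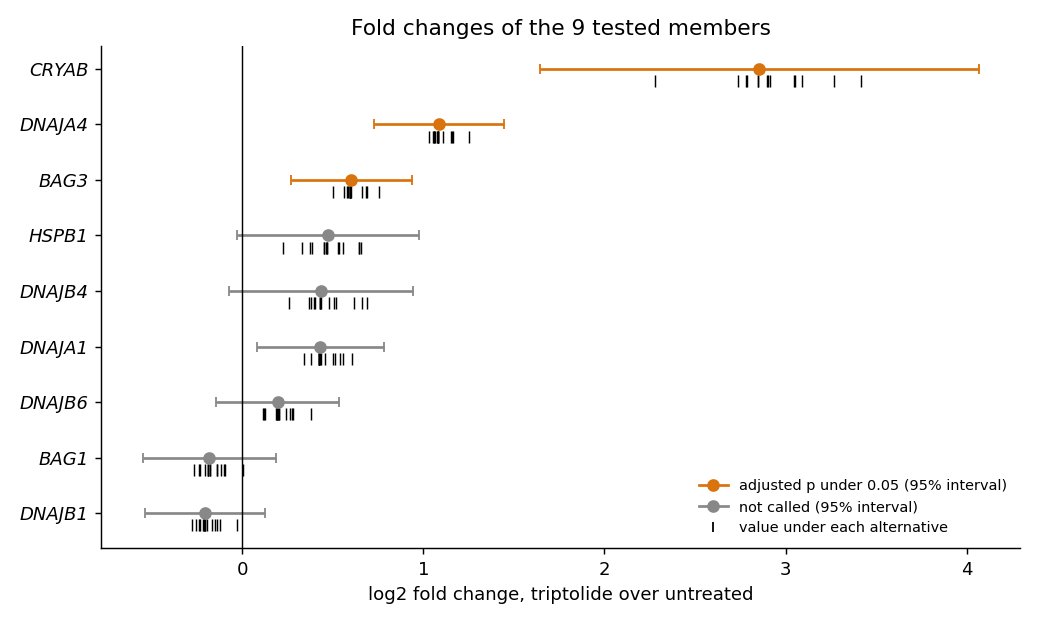
Log2 fold change (triptolide over untreated) of the 9 tested members in the edgeR fit with its 95% interval, orange where called and grey where not, and below each a tick for its value under each alternative. CRYAB, DNAJA4 and BAG3 are called, with log2 fold changes of 2.85, 1.08 and 0.60, and the ticks of BAG1 reach 0.

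The windows before the annotated starts of these genes were searched for paired heat shock units, since many of the genes are known targets of HSF1. RefSeq sequences of GRCh38.p14 were at hand for 9 members, with 14 start sites, and CRYAB had none. In the 250 bases before each start, GAANNTTC (head to head) or TTCNNGAA (tail to tail) was found for 7 of the 9 members, in 7 of the 14 windows. Each form reads the same on both strands, and overlapping matches were counted. Of all 35116 promoter windows of that length 5.78% held the first form, 6.62% the second and 11.6% either. A run of 3 alternating units stood before DNAJB6 and in 0.441% of all windows. BAG1 and BAG3 had no match in this window. In the last 120 or 200 bases before a start, which held its matches, many bases lay in GENCODE 29 exons of any gene. These were 120 of 120 for HSPB8, 158 of 200 for DNAJA1, 129 of 200 for HSPB1 and 85 of 120 for DNAJB4. They were fewer for DNAJB6 (38 of 200) and the second starts of DNAJB1 (23 of 120) and DNAJA4 (18 of 120). Some matches can therefore lie in transcribed sequence.

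The 120 bases before the second annotated start of DNAJA4 (chr15:78264442-78264561, plus strand) and of DNAJB1 (chr19:14518398-14518517, minus strand) are shown because each held a pair of head to head matches with the same letters, in capitals. They lay 84 to 91 and 45 to 52 bases before the start of DNAJA4, and 70 to 77 and 40 to 47 bases before that of DNAJB1.
DNAJA4: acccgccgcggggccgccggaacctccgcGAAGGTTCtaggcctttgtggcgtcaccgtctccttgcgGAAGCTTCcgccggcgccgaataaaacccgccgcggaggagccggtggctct
DNAJB1: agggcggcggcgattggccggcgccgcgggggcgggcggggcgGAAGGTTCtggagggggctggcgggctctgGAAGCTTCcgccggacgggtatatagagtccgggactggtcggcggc

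DNAJA4 rose and DNAJB1 did not pass the test. Each has 3 annotated starts, and which of them these cells used was not tested. Whether HSF1 bound any match, and whether the matches had a part in the values, was not tested either. Units in other forms or farther from a start were not searched. The 250 bases before the start of BAG3 (chr10:119651130-119651379, plus strand) are shown as well. They are printed without capitals because no match was found.
BAG3: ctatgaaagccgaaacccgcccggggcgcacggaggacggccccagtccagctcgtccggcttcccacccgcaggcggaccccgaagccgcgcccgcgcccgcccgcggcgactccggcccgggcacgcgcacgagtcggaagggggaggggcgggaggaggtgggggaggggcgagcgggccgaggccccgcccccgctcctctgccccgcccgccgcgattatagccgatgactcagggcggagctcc

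The matches of the other members are shown with up to 11 bases on each side, in capitals as before: DNAJA1 (chr9:33025064-33025093, plus strand), DNAJB4 before its second start (chr1:78004830-78004859, plus strand), DNAJB6 with its 3 units (chr7:157336865-157336893, plus strand), HSPB1 (chr7:76302480-76302509, plus strand) and HSPB8 (chr12:119178832-119178861, plus strand).
DNAJA1: aaagggctccaGAAGATTCcacgagcgccg
DNAJB4: agcatttgctgTTCTAGAAagtacagagac
DNAJB6: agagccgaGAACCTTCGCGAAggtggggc
HSPB1: ccttaacgagaGAAGGTTCcagatgagggc
HSPB8: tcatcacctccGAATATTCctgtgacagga

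**Figure D3:**
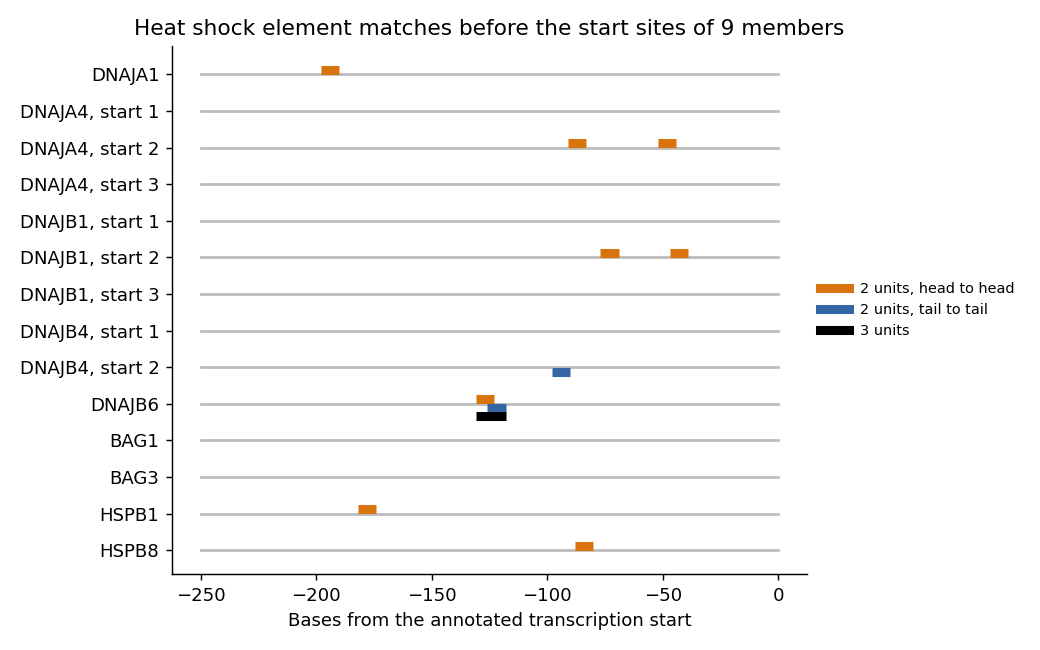
Position, in bases before the annotated transcription start, of heat shock unit matches in the 250 bases before each of 14 RefSeq start sites of 9 members (orange, 2 units head to head; blue, 2 units tail to tail; black, 3 units). The second starts of DNAJA4 and DNAJB1 each have a pair of head to head matches within 91 bases, and the windows of BAG1 and BAG3 are empty.

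Of the BAG genes, BAG3 (ENSG00000151929) was at 124, 122 and 126 CPM untreated and at 203, 196 and 165 CPM with triptolide. The untreated libraries lay within 4 CPM of each other and all triptolide libraries lay above them. The mean went from 124 ± 1.93 to 188 ± 20.3 CPM (SD, n = 3 libraries each), which is 1.52-fold, and the edgeR log2 fold change was 0.60 ± 0.15 (SE; adjusted p = 0.0201). BAG3 passed in 11 of the 15 alternatives. Among the others were the fits without untreated replicate 1 (edgeR adjusted p = 0.0828), without untreated replicate 2 (0.116) and with scaling on ribosomal protein genes (0.0596), and over all 15 its log2 fold change stayed between 0.50 and 0.76. BAG1 (ENSG00000107262) had 29.9, 33.02 and 37.9 CPM untreated and 32.7, 28.3 and 27.995 CPM with triptolide, and its groups overlapped. Its log2 fold change was -0.18 ± 0.17 (edgeR adjusted p = 0.502), and 0.003 with scaling on ribosomal protein genes, where the median of all tested genes moved to 0.17.

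The ratio of the 2 BAG genes does not depend on how libraries are scaled. There were 4.15, 3.69 and 3.31 BAG3 counts per BAG1 count in the untreated libraries and 6.20, 6.93 and 5.90 with triptolide. The ratio was higher in 3 of 3 triptolide libraries than in any untreated library, by 0.77 on the log2 scale or 1.71-fold. The exact two-sided permutation p was 0.1, which is the smallest that 3 against 3 libraries can give, and 0.1 after Benjamini-Hochberg adjustment over the 3 ratios computed. The ratio of DNAJB1, DNAJA4 and DNAJB4 together to DNAJA1 and DNAJB6 together, in which DNAJB1 and DNAJA1 hold most counts, was 0.875, 0.803 and 0.889 untreated and 0.683, 0.581 and 0.566 with triptolide. It was lower in 3 of 3 triptolide libraries, with a log2 difference of -0.49 and the same exact permutation p of 0.1. The third ratio, BAG3 counts per HSPB8 count, was 369, 733 and 2282 untreated and 323, 249 and 345 with triptolide, also without overlap (exact permutation p = 0.1). Its untreated values rest on 6, 3 and 1 HSPB8 counts, and without untreated replicate 3 the log2 difference went from -1.49 to -0.78.

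**Figure D4:**
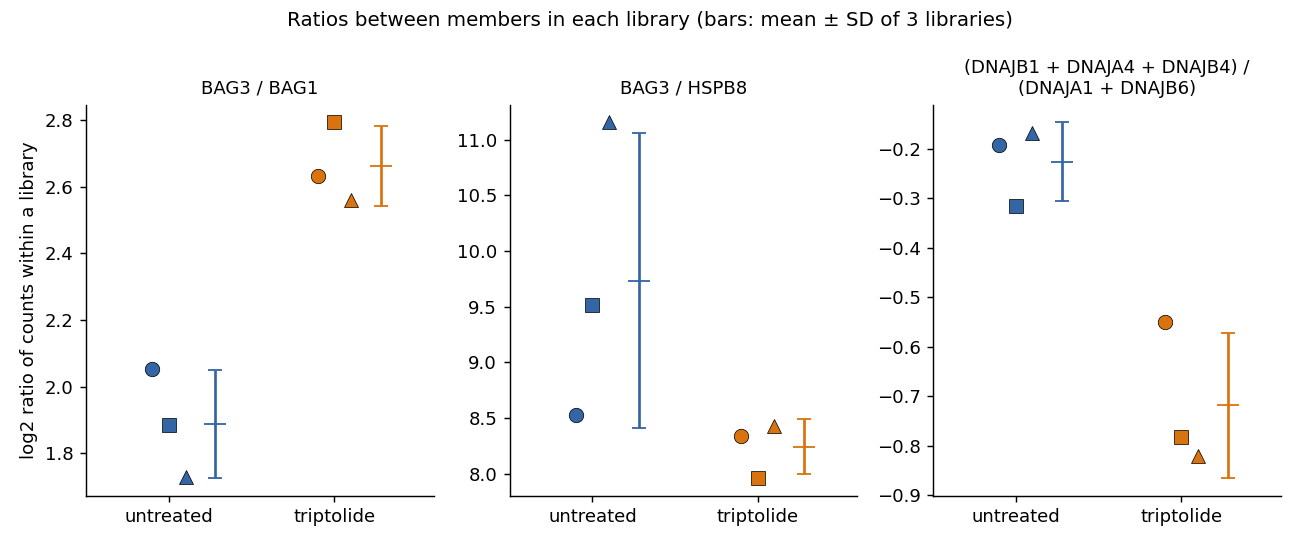
Log2 ratio of counts within each library for BAG3 over BAG1, BAG3 over HSPB8, and DNAJB1, DNAJA4 and DNAJB4 over DNAJA1 and DNAJB6 (markers, the 3 replicates; bars, mean ± SD). The 2 groups do not overlap in any panel, and the untreated BAG3 over HSPB8 values spread from 8.53 to 11.2.

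HSPB1 (ENSG00000106211), also known as HSP27, had 1051, 1077 and 1498 CPM untreated and 2242, 1560 and 1232 CPM with triptolide. Triptolide replicate 3 lay between the untreated libraries, so the groups overlapped. The mean went from 1209 ± 251 to 1678 ± 515 CPM (SD, n = 3 libraries each), and the log2 fold change of 0.47 ± 0.23 was not called (edgeR adjusted p = 0.185, 95% interval from -0.03 to 0.97). HSPB1 was called in 0 of the 15 alternatives, with adjusted p-values from 0.0571 to 0.439.

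CRYAB (ENSG00000109846), alpha-B crystallin, a small heat shock protein of lens and muscle, had 5, 0 and 4 counts in the untreated libraries and 24, 31 and 23 with triptolide. In CPM these were 0.28, 0 and 0.22 against 1.51, 1.36 and 0.919, and the 0 counts of untreated replicate 2 allow up to 0.166 CPM (3 counts, counting error only). edgeR gave a log2 fold change of 2.85 ± 0.56 (SE; 95% interval from 1.64 to 4.07; adjusted p = 0.0052). CRYAB was called in each of the 14 alternatives that tested it, and a mean of at least 5 CPM left it out. Apart from the fit without the low-count filter, it entered them through its triptolide libraries, the group in which it was high. Those fits therefore lend its call no support, and all rest on the same few untreated counts. Of the striated muscle and lens markers 4 were tested and 0 called by edgeR, DESeq2 or limma-voom, with 2 higher and 0 lower at an unadjusted p under 0.05. Their summed level ran from 61.1 to 80.3 CPM untreated and from 71.9 to 84.1 CPM with triptolide, most of it from TNNT1. ACTA1 had 39 counts untreated and 84 with triptolide, CKM 3 and 17, and the lens gene BFSP1 475 and 807. MB went the other way, with 29 and 17, and TTN had 510 and 615 (log2 fold change -0.007). MYH7 had 2 and 0, MYH2 1 and 0, and ACTC1 and TNNT2 1 and 1. CRYAB shares 626 exon bases with HSPB2 on the opposite strand in GENCODE 29, and HSPB2 has no row in the count table. Without the strand setting, reads of these bases cannot be told apart.

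HSPB8 (ENSG00000152137), the partner of BAG3, had 6, 3 and 1 counts untreated and 10, 18 and 12 with triptolide. Its levels of 0.336, 0.166 and 0.055 CPM untreated and 0.63, 0.788 and 0.479 CPM with triptolide did not overlap. It did not reach the filter on low counts, and it was called in an edgeR fit without that filter (log2 fold change 1.72, adjusted p = 0.0271), in which 9.24% of 35716 genes were called. In the 5 fits leaving out 1 library in which HSPB8 was tested, its adjusted p ran from 0.0337 to 0.137. It entered those fits through its triptolide libraries, the group in which it was high, so they lend its call no support. CRYAB and HSPB8 rested on 9 and 10 untreated counts in all, and they stood beside the trophoblast, blood and fibroblast markers above, whose part was not tested.

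Over the members, the groups did not overlap in 5 of the 9 tested genes, 4 with triptolide above and 1 below, and in HSPB8. Among all tested genes 36.7% did not overlap, 19.8% with triptolide above and 16.9% below.

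Per kilobase of the principal GENCODE 29 transcript the untreated levels spanned 4 orders of magnitude. HSPB1 came first at 1330 CPM per kb (range 1157 to 1648), before DNAJB1 at 201 (190 to 219), DNAJA1 at 156 (147 to 164) and DNAJB6 at 114 (102 to 122). BAG3 followed at 48.2 (47.4 to 48.9), BAG1 at 32.4 (28.8 to 36.6), DNAJA4 at 3.98 (3.87 to 4.16) and DNAJB4 at 2.38 (2.17 to 2.55). CRYAB at 0.149 and HSPB8 at 0.086 overlapped, and the other neighbours did not. With triptolide DNAJA1 stood at 211 (183 to 239) and DNAJB1 at 174 (164 to 183) CPM per kb, in the reverse order, with only a narrow gap between the genes' ranges. The order depends on the length used. Over all annotated exons DNAJA1 stood above DNAJB1 in both groups, at 136 and 124 CPM per kb untreated and 184 and 107 with triptolide. On that scale DNAJB6 stood at 12.2 CPM per kb untreated, below BAG3 at 45.1, and BAG1 at 4.76. DNAJA4 at 1.96 and DNAJB4 at 1.88 came close together, and HSPB8 at 0.065 stood above CRYAB at 0.055. DNAJB6 has a processed copy, DNAJB6P1, with 1813 counts over the 6 libraries, and the assignment of reads between the copies is uncertain.

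Related genes were set beside the members from lists of the same machinery. Of 8 tested class A and B J-domain genes other than the members, DNAJB5 rose and DNAJB12 fell, with a list median log2 fold change of -0.17. DNAJB12 (ENSG00000148719), a membrane J-domain protein of the endoplasmic reticulum, had 52.6, 49.8 and 49.8 CPM untreated and 26.8, 25.9 and 27.6 CPM with triptolide, a log2 fold change of -0.92 ± 0.15 (edgeR adjusted p = 0.00216). It was called in 14 of 15 alternatives and not with scaling on ribosomal protein genes (adjusted p = 0.115). DNAJB5 rose from 3.998 ± 0.33 to 6.42 ± 0.72 CPM (edgeR adjusted p = 0.0411) and passed in 7 of 15 alternatives, not with ribosomal protein scaling (0.0993) or without the low-count filter (0.0695). Leaving out 1 library at a time, it passed without triptolide replicate 2 (adjusted p = 0.0475) and not in the other 5 fits (0.0548 to 0.18).

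Of 29 tested class C J-domain genes, 2 rose and 1 fell, with a median of -0.16. DNAJC6, auxilin, which works with HSC70 in uncoating clathrin vesicles, rose from 0.759 ± 0.133 to 2.49 ± 0.35 CPM (edgeR adjusted p = 0.00202). DNAJC1, a J-domain protein of the endoplasmic reticulum membrane, rose from 22.8 ± 3.23 to 34.7 ± 2.51 CPM, and DNAJC24, of the diphthamide pathway, fell from 9.77 ± 0.75 to 5.72 ± 1.35 CPM (edgeR adjusted p = 0.0329 and 0.0326). DNAJC1 and DNAJC24 each passed in 9 of 15 alternatives, and neither passed with ribosomal protein scaling (edgeR adjusted p = 0.0681 and 0.333). DNAJC1 did not pass without untreated replicate 1 or 2 or triptolide replicate 2 or 3 (edgeR adjusted p = 0.166, 0.125, 0.0727 and 0.0701). DNAJC24 did not pass without untreated replicate 1 or 2 or triptolide replicate 3 (edgeR adjusted p = 0.0845, 0.109 and 0.0591), nor with library totals (0.071) or a filter at a mean of 5 CPM (0.0753).

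The other BAG genes and HSP70 nucleotide exchange factors had 0 of 12 called by edgeR or limma-voom, 1 higher and 0 lower by DESeq2 and at an unadjusted p under 0.05, and a median of -0.07. HSPA4 stood at 505 ± 28.1 and 442 ± 73.0 CPM and HSPH1 (HSP110) at 359 ± 16.6 and 391 ± 72.9 CPM. Of 17 tested genes that work with BAG3 and HSP70 in clearing clients, 0 were called by edgeR, DESeq2 or limma-voom and 2 were higher at an unadjusted p under 0.05. FLNA, a filamin that crosslinks actin, stood at 1662 ± 230 and 2308 ± 876 CPM (edgeR adjusted p = 0.216), and YWHAG at 730 ± 134 and 775 ± 100.1 CPM. The small heat shock protein genes HSPB6, HSPB7 and HSPB9 had 20, 4 and 4 counts untreated and 30, 19 and 9 with triptolide, too few to be tested. The other 5 of the 8 listed, HSPB2, HSPB3, HSPB11, CRYAA and ODF1, were not found in the count table under these symbols.

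Of 24 HSP70, HSP90 and HSF genes, 5 rose and 1 fell, with a median of -0.13. The heat-inducible HSPA1A had 156, 152 and 141 CPM untreated and 475, 353 and 350 CPM with triptolide, and HSPA6 had 0.785, 0.997 and 1.16 against 6.55, 4.94 and 3.55 CPM. Both groups of 3 stood fully apart (edgeR adjusted p = 0.000348 and 0.000426). HSPA8, the constitutive HSC70 that J-domain proteins serve, had 3295, 3570 and 3911 CPM untreated and 2078, 2351 and 2027 CPM with triptolide, and fell (edgeR adjusted p = 0.00982, 0.0771 with ribosomal protein scaling and 0.0507 when triptolide replicate 3 was left out). HSF1 itself stood at 113 ± 10.7 and 114 ± 27.1 CPM.

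**Figure D5:**
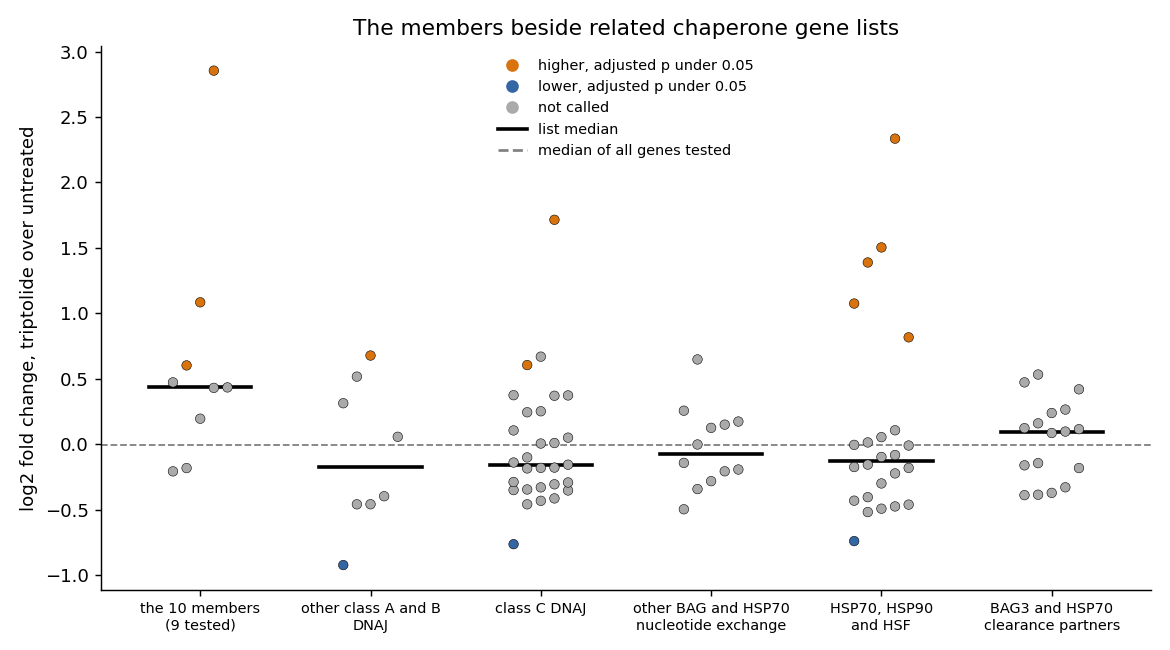
Log2 fold change of each tested gene (points; orange higher, blue lower, grey not called) in the members and 5 related lists, with a bar at each list's median and a dashed line at the median of all tested genes. The medians run from -0.17 in the other class A and B J-domain genes to 0.43 in the members, of which CRYAB is the topmost point.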

How the data were processed

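The authors deposited whole-number counts per Ensembl gene, made with HISAT2 and featureCounts per the submitters' processing notes. Their versions and the build, annotation and strand setting are not stated in the labels or headers, so reads of overlapping genes or near-identical copies are uncertain. Names were found for 35639 of 35716 IDs. Genes passing edgeR's filterByExpr (minimum count 10) were tested with edgeR 4.0.16 in R 4.3.3 (TMM scaling, glmQLFit, glmQLFTest), group as the only term, with Benjamini-Hochberg adjustment over all 15202 tested. CPM use TMM-scaled library sizes, and lengths and GC come from GENCODE 29. Ratios were compared by exact permutation.

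The members, lists and tests were chosen with earlier results of these data known. Named were all members, in each related list up to 2 called genes a direction, by adjusted p, or its 2 genes of highest level if it had no call, and the 3 genes nearest to the member with the smallest adjusted p. Of the cell type markers, the one of highest level in each list and some of those at 0 in a group were named. KRT18, EPCAM, CDH1, ACTA1, CKM, BFSP1, MB, TTN, ACTC1, TNNT2, HSF1, HSPB6, HSPB7 and HSPB9, outside this rule, were picked after their values were seen. The 15 alternatives were RLE, library totals, ribosomal protein scaling, no low-count filter, a filter at a mean of 5 CPM, limma-voom (limma 3.58.1), DESeq2 1.42.0, a replicate block, a GC offset and each library left out in turn. Figures used matplotlib 3.10.9.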

Additional observations from a re-analysis of the deposited data

How the results depend on the processing

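DNAJA4 was called higher in all 15 alternatives, DNAJB1, DNAJB6, BAG1 and HSPB1 in none of 15, and BAG3 in 11. CRYAB was called in all 14 that tested it. Apart from the fit without the low-count filter, it entered these through the group in which it was high, so they lend no support. The count of members called higher went from 3 to 5 with the GC offset, by DNAJA1 and DNAJB4, and ranged from 2 to 5 when 1 library was left out. The count called lower was 0 throughout. Over all tested genes the counts of 1527 higher and 884 lower became 1175 and 128 with ribosomal protein scaling, 584 and 336 with a mean of at least 5 CPM, which tests fewer genes, and 2063 and 1816 with the GC offset. Without 1 library they ranged from 953 to 1580 higher and from 407 to 1034 lower. The share of calls that were higher was 63.3%, and 73.8% with library totals, 90.2% with ribosomal protein scaling and 53.2% with the GC offset. Apart from the smaller set tested, the cause was not tested. The log2 ratio of the J-domain genes ranged from -0.58 to -0.44 when 1 library was left out.

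Replicate numbers gave no sign of pairing the libraries. Deviations from the group means of libraries with the same number correlated at 0.029, -0.041 and -0.439. Untreated replicate 1 correlated best with triptolide replicate 3 (0.312). With 3 libraries in a group these correlations are tied to each other and cannot exclude a pairing. With a replicate block 2 members were higher and 0 lower, among 1523 and 856 genes, and BAG3 had an edgeR adjusted p of 0.0621. For the ratios the block leaves the mean difference as it is by construction, and the exact sign-flip p was 0.25, the smallest 3 pairs can give. CRYAB and HSPB8, at about 10 untreated counts each, are limited by depth.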
